A study of Homo sapiens with 688 samples.

Results

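The experiment described here is a 6 h treatment of BT20 cells with mitoxantrone, read across genes and pathways. BT20, an established cell line from a basal-type breast carcinoma, is known to carry mutant p53, and mitoxantrone is an anthracenedione that traps topoisomerase II on cut DNA. The wells were assigned to their groups from the labels: 12 wells of a 96-well plate that received Mitoxantrone Hydrochloride at 0.18 µM were set against the 12 wells of the same plate that received only the vehicle DMSO, 24 of the 688 libraries of the series. The study chose each drug's dose as one that left most cells viable over a longer exposure, and the other wells of the plate held 6 more drugs, of which idarubicin (0.084 µM) and gemcitabine (0.194 µM) are used below, also at 6 h. All wells held the same cell line on 1 plate, and nothing in the sources used here says that they came from separately grown cultures, so that p-values measure the spread between wells of this plate, which may be technical.

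Each well was read by PLATE-Seq, in which the 3′ ends of transcripts are barcoded by well and sequenced as a pool. Further material of the same wells was combined into 2 TruSeq pools of 6 wells per condition, which serve as a second assay on the same treated cells and not as an independent experiment. Total counts per well were 861531 to 1191121 with mitoxantrone (median 954221) and 367848 to 1071312 with DMSO (median 924316), and 1 DMSO well, replicate 5, lay under 0.5 times the plate's median. The mitoxantrone pools held 23646106 and 24336586 counts and the DMSO pools 26719454 and 25356838. Of all counts on the plate, 41.1% fell on 6 symbols. Levels below are CPM, a gene's count scaled to a common library total, and a gene is called when its adjusted p-value in the quasi-likelihood test of edgeR is under 0.05. BT20 cells were recognizable as epithelial in both groups, with KRT5 at a median of 1967 CPM with mitoxantrone and 2090 CPM with DMSO. The 9 epithelial markers together had a lower summed level with mitoxantrone (median 6749 CPM) than with DMSO (7990 CPM), with overlapping wells. Of the 7 tested, 6 had a log2 fold change below 0 and 1 above. Of 13 markers of fibroblasts, endothelial cells and leukocytes, 7 had no count in any of the 24 wells. The summed level of all 13 was 22.7 to 74.8 CPM with mitoxantrone and 26.2 to 84.2 CPM with DMSO.

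Dividing cells make most of their mitotic proteins in waves. Genes for entry into DNA replication are transcribed around the G1/S boundary under E2F factors. Genes for the spindle, the kinetochore and the exit from mitosis are transcribed in G2 and M, largely through 2 promoter elements, the cell cycle genes homology region (CHR) and the CCAAT box. DNA breaks made by topoisomerase II poisons activate checkpoint kinases that hold cells before mitosis. In a bulk well, fewer cells in a phase and less RNA per cell cannot be told apart.

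The promoters of 5 genes on which the results turn show these elements. The stretches run from 160 bases before to 20 bases after the first RefSeq start of each gene (GRCh38.p14), with CHR, CCAAT and E2F letters in capitals. PLK1 and PSRC1 are shown as genes that fell, and CDC6 and PCNA as genes that rose. KIF20A is shown as a gene that fell without the CHR letters searched here (TTTGAA or TTCGAA). On the forward strand, PLK1 is at chr16:23678729-23678908, KIF20A at chr5:138178952-138179131 and CDC6 at chr17:40287719-40287898. On the reverse strand, PSRC1 is at chr1:109283126-109283305 and PCNA at chr20:5126603-5126782.
PLK1: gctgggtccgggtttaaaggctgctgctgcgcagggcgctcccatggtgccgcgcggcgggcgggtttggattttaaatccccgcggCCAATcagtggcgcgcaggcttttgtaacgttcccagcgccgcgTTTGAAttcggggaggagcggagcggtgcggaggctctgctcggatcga
PSRC1: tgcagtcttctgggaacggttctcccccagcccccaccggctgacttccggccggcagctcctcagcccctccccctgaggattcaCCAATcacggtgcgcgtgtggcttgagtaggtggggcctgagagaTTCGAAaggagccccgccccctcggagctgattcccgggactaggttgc
KIF20A: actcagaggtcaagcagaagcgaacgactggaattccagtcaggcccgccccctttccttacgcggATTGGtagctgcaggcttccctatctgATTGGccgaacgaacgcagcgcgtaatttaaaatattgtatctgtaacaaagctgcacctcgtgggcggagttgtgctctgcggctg
CDC6: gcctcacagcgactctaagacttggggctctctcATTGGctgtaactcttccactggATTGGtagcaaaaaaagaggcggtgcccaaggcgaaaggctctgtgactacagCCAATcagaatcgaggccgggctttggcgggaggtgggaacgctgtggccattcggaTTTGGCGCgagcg
PCNA: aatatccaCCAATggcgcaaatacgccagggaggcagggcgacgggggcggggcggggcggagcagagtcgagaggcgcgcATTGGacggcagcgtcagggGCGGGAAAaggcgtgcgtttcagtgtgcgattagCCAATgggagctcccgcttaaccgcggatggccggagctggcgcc

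After 6 h of mitoxantrone, many transcripts of the mitotic machinery fell, and a few transcripts of DNA replication and of NF-κB signalling were among those that rose. Of 6276 genes tested in PLATE-Seq, 76 (1.21%) were called, 10 higher (0.159%) and 66 lower (1.05%) than with DMSO, beside 589 at an unadjusted p under 0.05. Of the 66 lower genes, 34 were in none of the 7 mitotic lists used below. Among these were TNFAIP8L1 (log2 fold change -1.57), CDCA3 (-1.17), DHRS2 (-0.56) and SAPCD2 (-0.55). The higher genes included BTG3, BC067230 (1.28), MRPL32 (0.50), RPS20 (0.33) and OK/SW-cl.16 (0.17) besides those of replication and NF-κB. MRPL32, RPS20 and OK/SW-cl.16 were not called in TruSeq. Among called genes, 20 fell and 2 rose by more than 2-fold. The largest fitted fall was 3.2-fold (KIF20A) and the largest rise 2.56-fold (RELB). In 56 of the 76 genes, none of the 12 mitoxantrone wells crossed the median of the DMSO wells. That count describes genes already chosen by a test of these wells and is no further support. It was not taken over all genes tested. The groups did not overlap at all for 8 genes (0.127% of those tested), which were PLK1, AURKA, UBE2C, PSRC1, CCNB1, FAM83D, CENPF and PMEPA1, all lower with mitoxantrone (PMEPA1 was named after its values were seen). The median standard error of a log2 fold change over all genes tested was 0.243, so that changes well under 2-fold were seen mainly for abundant transcripts.

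The 4 genes that mark the response separated the wells to different degrees. KIF20A, a kinesin of the central spindle, lay between 5.85 and 55.9 CPM with mitoxantrone (median 22.1) and between 34.8 and 117 CPM with DMSO (median 83.7). A single DMSO well fell within the range of the treated wells. The log2 fold change was -1.68 (SE 0.23, adjusted p = 5.23e-07, edgeR). PSRC1, a microtubule-binding protein of the spindle, lay between 17.4 and 49.9 CPM (median 34.9) against 60 to 139 CPM (median 111), with no overlap and a log2 fold change of -1.55 (SE 0.17, adjusted p = 7.46e-10). BTG3, an antiproliferative gene of the BTG/TOB family, lay between 43 and 110 CPM (median 66.5) against 12.6 to 93.6 CPM (median 38.2). CDC6, which loads the replicative helicase onto origins, lay between 35.7 and 74.4 CPM (median 57.6) against 22.2 to 55.3 CPM (median 31.4). Both rising genes overlapped between the groups, although all 12 mitoxantrone wells were above the DMSO median, and their log2 fold changes were 0.81 (SE 0.20, adjusted p = 0.0196) and 0.79 (SE 0.19, adjusted p = 0.0138).

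**Figure D1:**
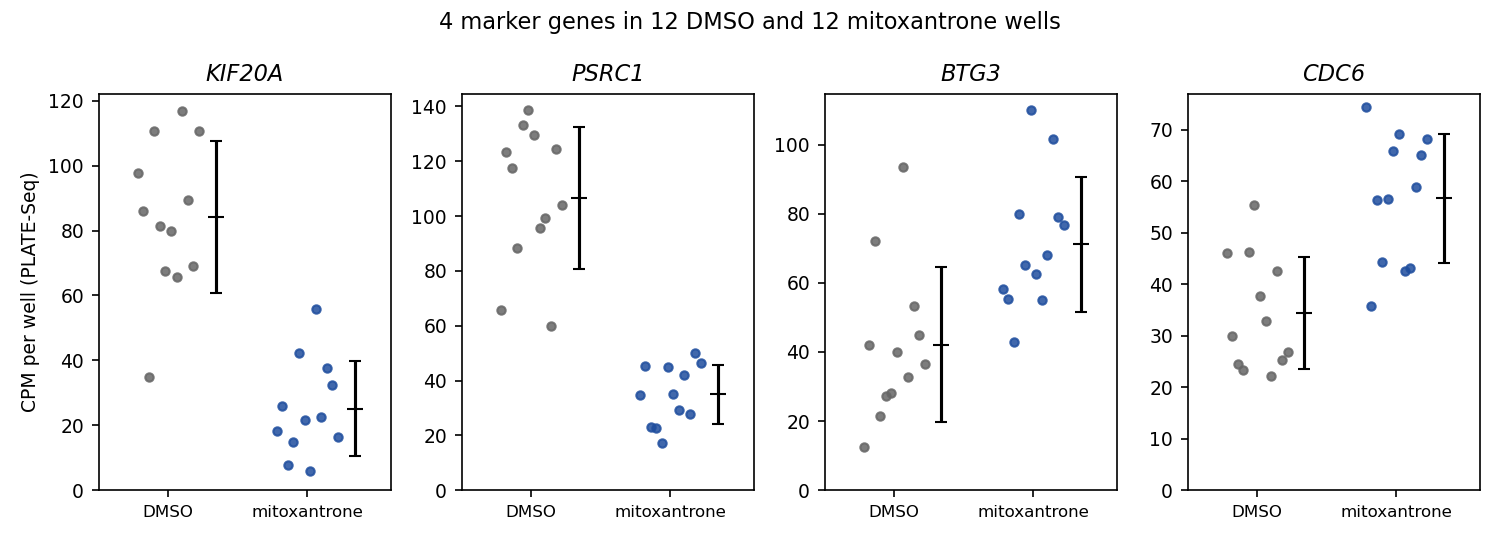
CPM per well of 4 marker genes in PLATE-Seq (linear axes from 0) for 12 DMSO wells (grey) and 12 mitoxantrone wells (blue), with the mean and SD as bars. KIF20A and PSRC1 sit lower with mitoxantrone, PSRC1 without overlap, and BTG3 and CDC6 sit higher with overlapping wells.

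In GRCh37, KIF20A lies on chromosome 5 from 137514408 to 137523412, PSRC1 on chromosome 1 from 109822178 to 109825808, BTG3 on chromosome 21 from 18965971 to 18985263, CDC6 on chromosome 17 from 38444131 to 38460909 and PLK1 on chromosome 16 from 23688977 to 23701688. PLATE-Seq reads come from the 3′ ends of these genes.

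Mitotic kinases drive entry into and passage through mitosis, and 5 of the 13 tested in PLATE-Seq fell while 0 rose (median log2 fold change of the list -0.56, of all genes tested 0.00). PLK1, needed for centrosome maturation and mitotic entry, had the smallest p of all genes. It lay between 90.9 and 191 CPM with mitoxantrone (median 143) and between 275 and 466 CPM with DMSO (median 401), a 2.5-fold fall (log2 fold change -1.32, SE 0.11, adjusted p = 1.02e-14). Every treated well was below every DMSO well. AURKA, the kinase of spindle poles, fell 2.81-fold, from a median of 274 to 88.7 CPM, again without overlap (adjusted p = 1.4e-12). The checkpoint kinase BUB1B had a median of 145 CPM against 233 CPM (log2 fold change -0.67), and NEK2, a centrosome kinase, 64.6 against 108 CPM (-0.72). BUB1, named after its values were seen, was the fifth call. CDK1, the catalytic partner of the mitotic cyclins, was not called, at a median of 319 CPM against 423 CPM (log2 fold change -0.26, adjusted p = 0.24). MELK and PKMYT1, which inhibits CDK1, had log2 fold changes of 0.26 and 0.22 and were not called.

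Of the kinesins, the motors of the spindle, 6 of 11 fell and 0 rose (list median -0.76). CENPE, which carries chromosomes to the spindle equator, lay between 4.64 and 36.9 CPM with mitoxantrone (median 12.3) and between 24.5 and 86.4 CPM with DMSO (median 45.1), a log2 fold change of -1.57 (SE 0.27, adjusted p = 6.98e-05). KIF23 and KIF20B, both of cytokinesis, changed by -0.89 and -0.61 on the log2 scale, and KIF14 and KIF2C, named after their values were seen, were also called. KIF18A, KIF18B and KIF4A had negative log2 fold changes (-0.56, -0.62 and -0.26) that were not called. Among 20 genes of the spindle and cytokinesis, 11 fell and 0 rose (list median -0.71). TPX2, the activator of AURKA, had medians of 41.7 CPM with mitoxantrone and 113 CPM with DMSO (log2 fold change -1.37, SE 0.17), FAM83D, which positions the spindle, 42 and 107 CPM (-1.31), and ASPM, at spindle poles, 27.5 and 63.6 CPM (-1.20). For each, all 12 treated wells lay below the DMSO median.

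The cyclins of G2 and M fell with the kinases. CCNB1 lay between 57.3 and 124 CPM with mitoxantrone (median 81.6) and between 131 and 271 CPM with DMSO (median 189), without overlap (log2 fold change -1.10, adjusted p = 3.76e-09). CCNB2 had medians of 63.9 and 118 CPM (-0.89), CCNA2, which also serves in S phase, 95.5 and 161 CPM (-0.59, adjusted p = 0.00373), and CKS2, a CDK adaptor, 41.1 and 77.9 CPM (-0.81). In all, 5 of 9 tested G2/M cyclins and regulators fell and 0 rose, the fifth being CCNF, named after its values were seen. FOXM1, the transcription factor of many G2/M genes, lay between 17.6 and 56.5 CPM with mitoxantrone and between 17.8 and 64.4 CPM with DMSO, with overlapping groups and a log2 fold change of -0.15 (SE 0.22, adjusted p = 0.931). CDC25B, the phosphatase that activates CDK1, narrowly missed the threshold (-0.67, adjusted p = 0.0598).

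The anaphase-promoting complex marks cyclins and securin for destruction. In PLATE-Seq, 2 of 12 tested members of its list fell and 0 rose (list median -0.15), its E2 enzyme and its mitotic activator. UBE2C, the E2 enzyme, lay between 342 and 520 CPM with mitoxantrone (median 383) and between 649 and 1009 CPM with DMSO (median 801), with no overlap (log2 fold change -0.92, SE 0.09, adjusted p = 2.36e-12). CDC20, the activator, had medians of 28.1 and 75.3 CPM (-1.25, adjusted p = 3.85e-05). The other 10 tested members were not called. ANAPC5, a core subunit, had medians of 50 and 39.8 CPM (0.38) and CDC16 33.4 and 32.4 CPM (0.09). In the TruSeq pools, described below, 15.1% of all genes were lower and 15.6% higher, and 2.77% and 1.94% with lane as a term. Of the 15 members, 7 were lower and 1 higher, and 5 and 0 with lane. Core subunits were among them, named here after their values were seen. CDC27 was lower in both fits (log2 fold change -0.64, and -0.49 with lane), whereas ANAPC1 (-0.24) was called lower and ANAPC11 (0.21) higher only without lane.

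Kinetochore and centromere genes were divided. Of 19 tested, 2 fell and 0 rose (list median -0.18). CENPF, at the outer kinetochore, lay between 81.6 and 148 CPM with mitoxantrone (median 111) and between 152 and 315 CPM with DMSO (median 222), a log2 fold change of -0.89 (SE 0.12, adjusted p = 5.23e-07) with no overlap. NDC80, which binds microtubules, had medians of 47.6 and 84.6 CPM (-0.74). CENPN and CENPK of the inner kinetochore and ZWINT had log2 fold changes of -0.03, 0.08 and 0.10 and were not called. Of 11 condensin, cohesin and related chromosome genes, NCAPD2, a condensin subunit, was the only one called (27.7 against 52.7 CPM at the median, -0.90). HMGB2 (-0.45, adjusted p = 0.0538) and PTTG1, the securin (-0.32, adjusted p = 0.171), were not. Over the 7 mitotic lists together, 32 of 95 tested genes fell and 0 rose (list median -0.52).

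TOP2A, the target of mitoxantrone and itself a gene of the G2/M wave, lay between 72 and 142 CPM with mitoxantrone (median 103) and between 102 and 240 CPM with DMSO (median 163). All 12 treated wells were below the DMSO median, with a log2 fold change of -0.63 (SE 0.13, adjusted p = 0.00179). TOP1 and TOP2B, the other topoisomerase genes tested, had log2 fold changes of -0.29 and -0.30 (SE 0.10 and 0.21) and were not called.

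Genes of the G1/S boundary and of replication origins ran the other way, with small changes. Of 24 tested in PLATE-Seq, 2 rose and 0 fell, and 23 had a log2 fold change above 0 (list median 0.37). PCNA, the sliding clamp of DNA polymerases, lay between 233 and 326 CPM with mitoxantrone (median 264) and between 148 and 235 CPM with DMSO (median 191), a 1.5-fold rise (log2 fold change 0.58, SE 0.10, adjusted p = 3.49e-05). The 2 ranges met only between 233 and 235 CPM. CDC6 was the other call. The helicase subunits MCM2, MCM4 and MCM5 had log2 fold changes of 0.54, 0.27 and 0.33 and ORC6, of the origin recognition complex, 0.31, with adjusted p-values from 0.084 to 0.518. RRM2, the regulated subunit of ribonucleotide reductase, rose by 0.36 on the log2 scale (294 against 226 CPM at the median, adjusted p = 0.0453), the sole call among 7 tested genes of nucleotide supply.

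The summed level shows both groups of genes well by well. The 111 genes of the 7 mitotic lists summed to 5581 to 6373 CPM in the mitoxantrone wells (median 5996) and to 8458 to 9172 CPM in the DMSO wells (median 8851), with a wide gap between the groups. The 33 genes of the G1/S list summed to 1485 to 1925 CPM with mitoxantrone (median 1620) and to 1071 to 1393 CPM with DMSO (median 1295), again without overlap. No test was run on these sums, because the lists were written with earlier results of these data known.

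**Figure D2:**
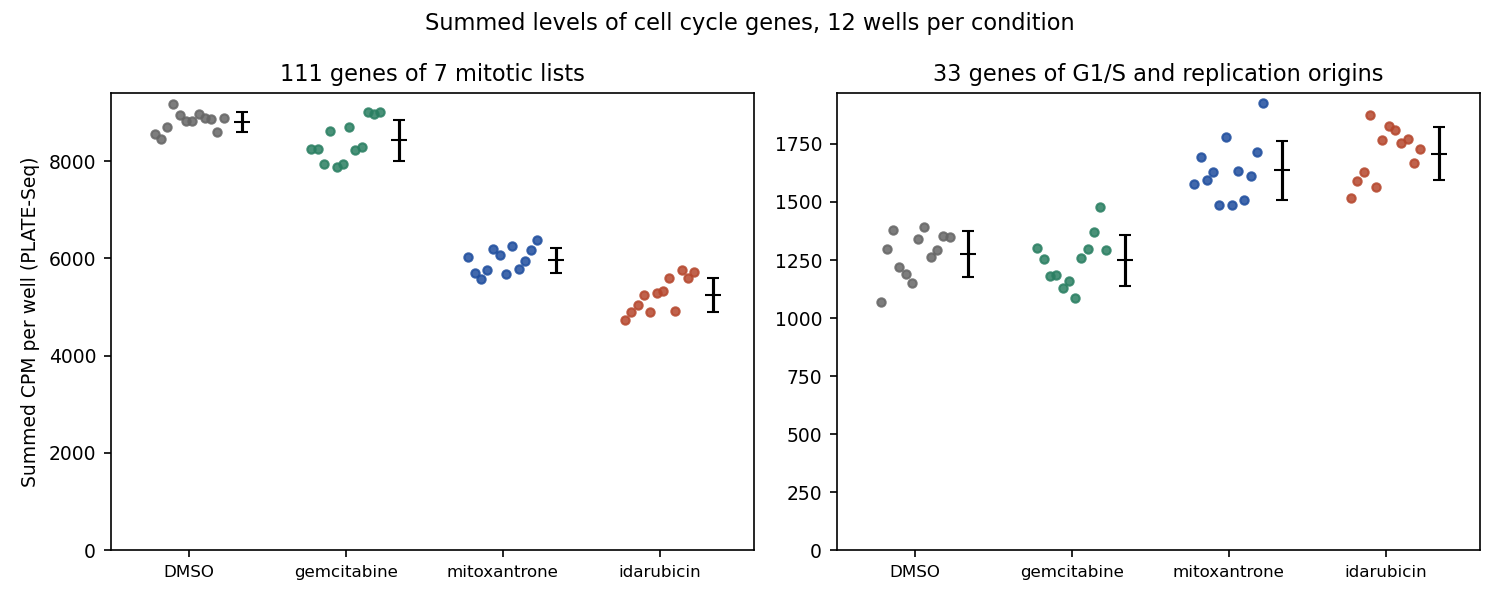
Summed CPM per well (linear axes from 0) of the 111 genes of 7 mitotic lists (left) and of the 33 G1/S and replication origin genes (right) for DMSO, gemcitabine, mitoxantrone and idarubicin, 12 wells each, with the mean and SD as bars. All mitoxantrone and idarubicin wells sit below all wells of the other 2 conditions on the left and above them on the right.

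The gene with the largest rise was RELB. RELB, a subunit of the non-canonical NF-κB dimer, lay between 8.52 and 39.9 CPM with mitoxantrone (median 23) and between 1.03 and 19.4 CPM with DMSO (median 9.54), with 11 of 12 treated wells above the DMSO median (log2 fold change 1.36, SE 0.33, adjusted p = 0.0136). NFKBIA, the inhibitor that NF-κB itself induces, had medians of 135 and 92.9 CPM (0.58, SE 0.13, adjusted p = 0.00922). These were the 2 calls among 5 NF-κB targets tested, and NFKBIZ, SOD2 and TNFAIP2 lay within 0.17 of 0 on the log2 scale.

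The p53 targets gave 0 calls among 10 tested (edgeR, list median 0.05), and the other members of the 29 were too low to test at this depth. CDKN1A, the CDK inhibitor p21, lay between 2.17 and 29.4 CPM with mitoxantrone and between 1.17 and 19.9 CPM with DMSO, with 10 of 12 treated wells above the DMSO median (log2 fold change 1.11, SE 0.39, adjusted p = 0.223). Immediate early genes (10 tested), apoptosis genes (8), the integrated stress response (6), transcription elongation (8) and rRNA synthesis (11) also gave 0 calls. Of all 6276 genes tested in PLATE-Seq, 1.21% were called. Lists this short, the p53 targets included, would mostly give 0 calls at that share, so these counts do not show a lack of response. Of 19 DNA damage and repair genes, H2AFX, the histone phosphorylated at breaks, was the only call, and it fell (152 against 247 CPM at the median, log2 fold change -0.70, adjusted p = 0.000415). In TruSeq, 15.6% of all genes were higher and 15.1% lower, and 1.94% and 2.77% with lane as a term. Of the 27 members of the DNA damage and repair list, 8 were higher and 5 lower there (list median -0.01), and 5 and 1 with lane (0.00). The recombination gene XRCC2 (0.52, and 0.58 with lane), the helicase gene BLM (0.32 and 0.50) and the checkpoint kinase gene CHEK1 (0.21 and 0.35), named after their values were seen, were among those higher in both fits. H2AFX was lower in TruSeq (-0.35) and was not called with lane (adjusted p = 0.0581). EGFR fell by 0.35 on the log2 scale (543 against 730 CPM, adjusted p = 0.0172), while KRT5, KRT7 and KRT18 were not called. Among 79 ribosomal protein genes, RPS20 was called higher (0.33).

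**Figure D3:**
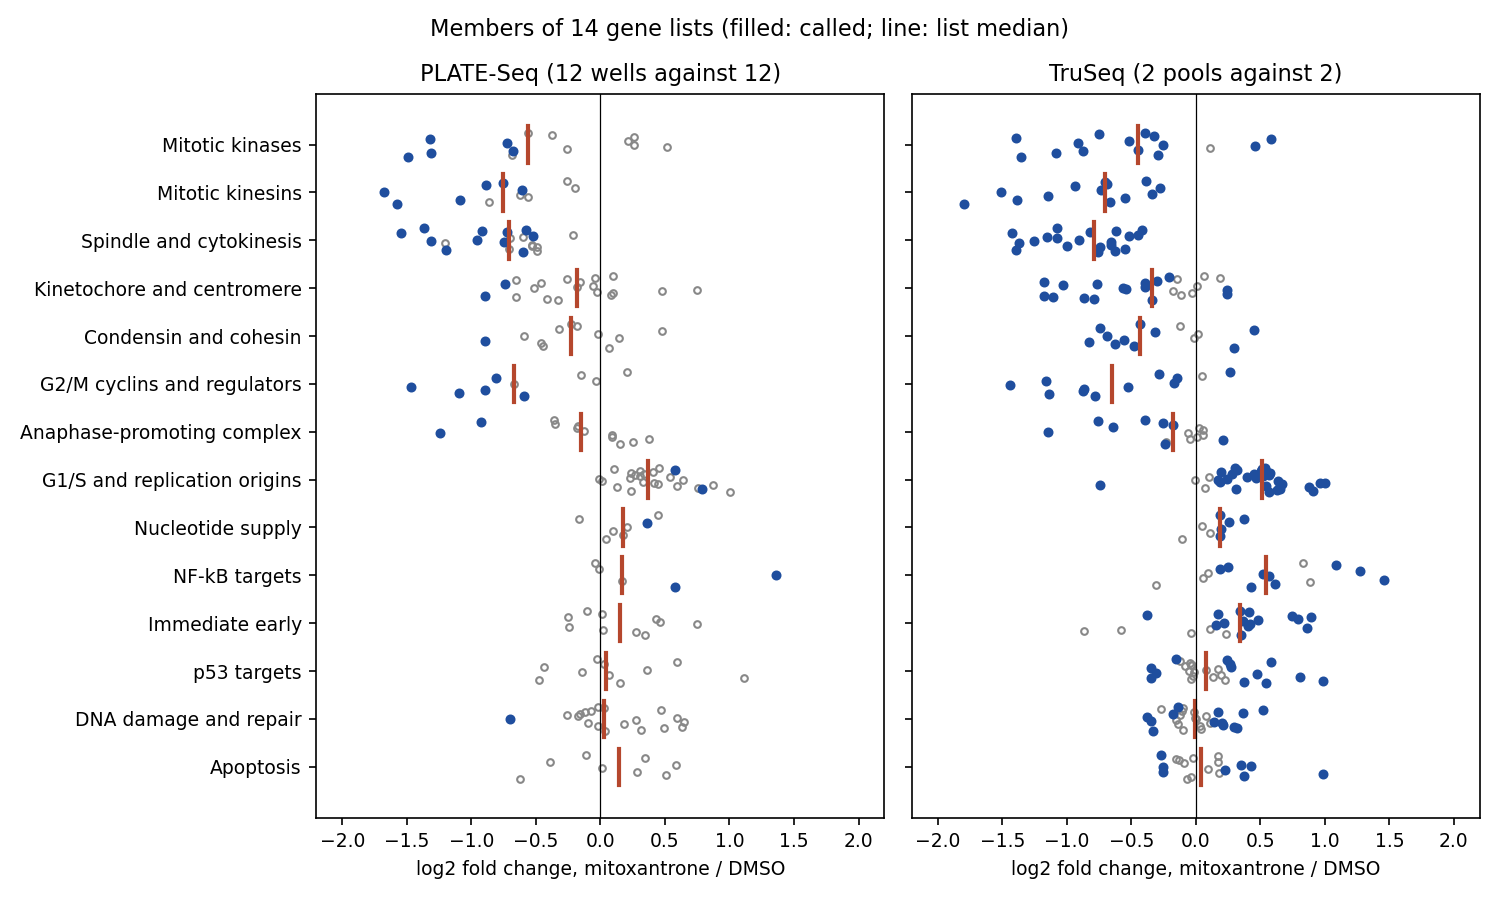
Log2 fold change of mitoxantrone over DMSO for the tested members of 14 gene lists in PLATE-Seq (left) and TruSeq (right). Each point is a gene, filled where called, and the vertical line is the list's median. The kinase, kinesin, spindle and G2/M cyclin lists lie mostly below 0 and the G1/S list mostly above 0 in both assays, and the median of the p53 targets is near 0.

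In the TruSeq pools, 4607 of 14970 genes tested (30.8%) were called, 2341 higher (15.6%) and 2266 lower (15.1%). The labels place both mitoxantrone pools on sequencing lane 1 and both DMSO pools on lane 2. With lane as a term, which the pools of aprepitant on both lanes allow, 705 genes (4.71%) were called. Of these, 290 were higher (1.94%) and 415 lower (2.77%), and 690 were also called without the term. Aprepitant was the only condition on both lanes, with 1 pool on each. The median standard error of a log2 fold change rose from 0.0823 to 0.142 with the term. A call lost to lane and a call lost to lower precision cannot be told apart here. The values below are given without the term, with the count under it beside each list. Without DMSO replicate 1 the count of 4607 fell to 2619, and without mitoxantrone replicate 1 to 2786. With 2 pools a condition, the spread was shared over all 16 pools of the plate.

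Of the 76 genes called in PLATE-Seq, 65 were called in TruSeq in the same direction, 58 lower and 7 higher, and 63 with lane as a term. Both assays used the same wells. KIF20A had 58.5 and 52 CPM in the mitoxantrone pools and 151 and 154 CPM in the DMSO pools, a log2 fold change of -1.51, PSRC1 had 36.5 and 35.9 CPM against 91.3 and 96.9 CPM (-1.42), and PLK1 had 66.3 and 62 CPM against 158 and 170 CPM (-1.40). TOP2A had 426 and 414 CPM against 875 and 873 CPM, a log2 fold change of -1.10, compared with -0.63 in PLATE-Seq. CDC6 had 172 and 165 CPM against 103 and 106 CPM (0.65) and BTG3 26.2 and 26 CPM against 18 and 18.6 CPM (0.47). RELB had 32 and 32.9 CPM against 12.5 and 13.6 CPM (1.27, and 0.96 with lane as a term). All of these were called with and without lane.

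The deeper pools gave calls for more members of the mitotic lists, to be read against 15.6% of all genes called higher and 15.1% lower (1.94% and 2.77% with lane). All 13 kinesins and all 20 spindle genes were called lower, and the same counts held with lane as a term. Of 15 mitotic kinases, 12 were lower and 2 higher (10 and 1 with lane). Of 23 kinetochore genes, 14 were lower and 2 higher (10 and 0), and CENPN, CENPK and ZWINT were again not called, at log2 fold changes of -0.03, -0.11 and 0.06. Of 13 condensin, cohesin and related genes, 8 were lower and 2 higher (8 and 0). The G2/M list had 10 of 12 genes lower and 1 higher (7 and 0), the higher one being MYBL2, which was not called with lane. FOXM1 was called lower with the same log2 fold change of -0.15 as in PLATE-Seq, and was not called with lane (adjusted p = 0.0961). Over all 7 lists, 84 of 111 genes were lower and 8 higher, and 73 and 1 with lane, at a list median of -0.54 in both fits.

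Of 33 G1/S and origin genes, 29 were higher and 1 lower in TruSeq (list median 0.51), and 26 and 1 with lane (0.45). E2F2, a transcription factor of this boundary that was too low to test in PLATE-Seq, had 70.8 and 68.4 CPM with mitoxantrone and 33.1 and 34.3 CPM with DMSO (log2 fold change 1.00, adjusted p = 6.05e-15). PCNA had 463 and 456 CPM against 322 and 303 CPM (0.51). The single lower member, named after its value was seen, was DBF4, the regulatory subunit of the kinase that fires origins, with 28.8 and 26.8 CPM against 45.7 and 44.6 CPM (-0.74, and -0.60 with lane).

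Of 14 NF-κB targets tested in TruSeq, 9 were higher and 0 lower (list median 0.55), and 5 were higher with lane. The adhesion gene ICAM1 (56.3 and 55.9 against 36.1 and 35.2 CPM, log2 fold change 0.61), NFKB2, the precursor of p52 (34.8 and 34.2 against 22.6 and 22.6 CPM, 0.57), and TNFAIP3, a feedback inhibitor (5.79 and 6.25 against 2.99 and 2.48 CPM, 1.09), were called in both fits. These 3 were named after their values were seen. Of 20 immediate early genes, 14 were higher and 1 lower, but 4 and 1 with lane. JUND and JUNB, AP-1 subunits, had log2 fold changes of 0.89 and 0.79 and were called in both fits. Of 27 p53 targets, 9 were higher and 4 lower, and 2 and 1 with lane (list median 0.08 and 0.02). Over all genes, 15.6% were higher and 15.1% lower, and 1.94% and 2.77% with lane. The share of lower p53 targets was near that of all genes, while that of higher ones was above it (2 genes with lane). CDKN1A had 21 and 22.4 CPM against 12.1 and 12 CPM (0.81, and 0.65 with lane, called in both), and AEN, an apoptosis-enhancing nuclease, rose by 0.55 and 0.54. BBC3 (PUMA) and BAX were called without lane and not with it. Of 80 ribosomal protein genes, 9 were higher and 20 lower, and 0 with lane.

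Among genes of 10 CPM or more, the largest changes in TruSeq included the following. CCNB3, a B-type cyclin not tested in PLATE-Seq, had 6.64 and 6.57 CPM with mitoxantrone and 31.4 and 34.1 CPM with DMSO (log2 fold change -2.35). PIF1, a DNA helicase that was also not tested there, had 21.2 and 19.9 CPM against 66.1 and 65.1 CPM (-1.72), and the zinc finger gene ZNF165 11.4 and 9.33 CPM against 29.6 and 25.1 CPM (-1.45). ZNF165 was also called lower in PLATE-Seq (-0.95). On the rising side stood RELB and E2F2 with PIDD, a death domain gene (90.3 and 88.1 against 41.8 and 44 CPM, 1.01), the hormone gene AMH (13.4 and 12.3 against 4.9 and 6.31 CPM, 1.16), the histone methyltransferase gene SUV420H2 (24.5 and 26.1 against 11.6 and 12.7 CPM, 1.02) and FAM222A (25.8 and 24.4 against 12.1 and 11.4 CPM, 1.05). All of these genes were also called with lane as a term.

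The remaining 11 PLATE-Seq calls were not called in TruSeq, and 5 of them had the other sign. LOC100507412 had medians of 64.7 and 136 CPM in the wells (log2 fold change -0.98), but 49.8 and 44.5 CPM against 49.6 and 48.5 CPM in the pools (-0.10). HES1, a target of Notch, had medians of 96.6 and 156 CPM in the wells (-0.56) and 40.6 and 38.8 against 38.4 and 35.5 CPM in the pools (0.06). RPS20 rose by 0.33 in the wells and was at 0.00 in the pools. MIR205HG and TUBB had log2 fold changes of -0.83 and -0.36 in the wells and -0.08 and -0.10 in the pools. PLATE-Seq counts only 3′ ends on the sense strand, and the counting of the TruSeq reads is not given in the sources used here. The part of these differences in the disagreement was not tested.

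**Figure D4:**
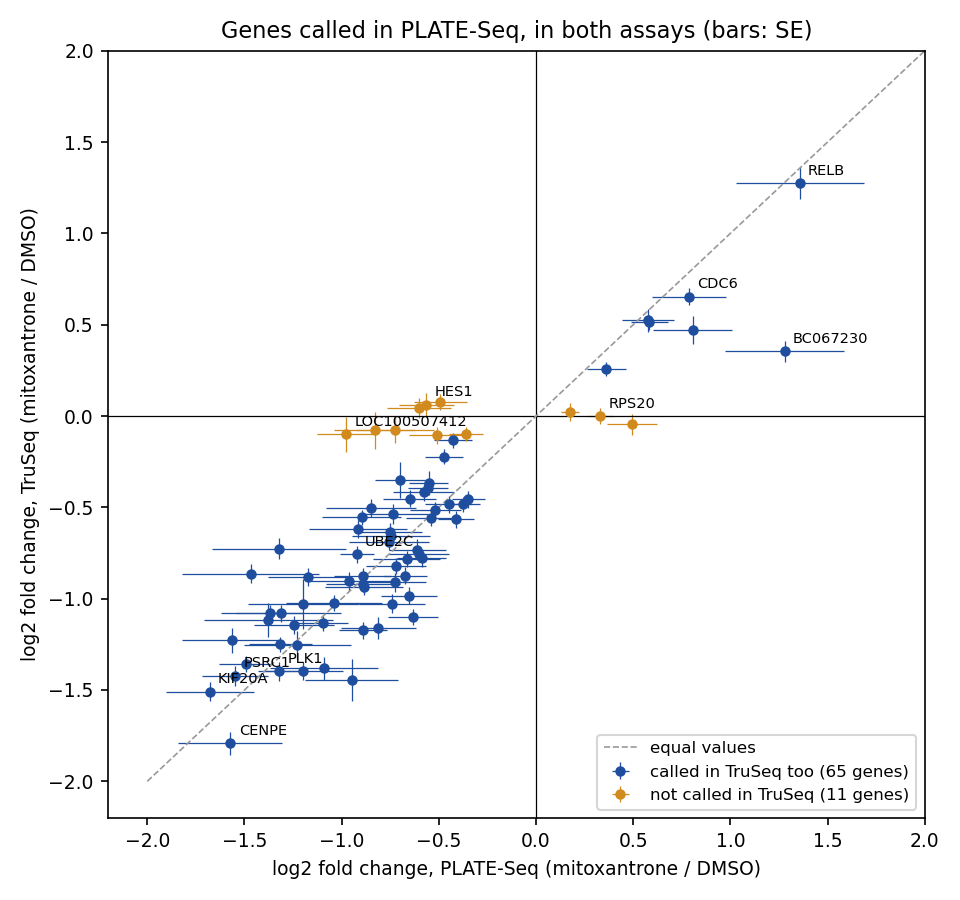
Log2 fold change of mitoxantrone over DMSO in PLATE-Seq (horizontal) and TruSeq (vertical) for the 76 genes called in PLATE-Seq, with standard errors as bars and equal values as a dashed line. The 65 genes called in both assays lie on the same side of 0 on both axes, and 11 genes lie near 0 on the TruSeq axis.

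To see what genes that moved together share in sequence, the letters of 3 elements were searched on both strands in a promoter window from 250 bases before to 50 bases after the first RefSeq start. The CHR was taken as TTTGAA or TTCGAA, the CCAAT box as CCAAT, and the E2F element as TTTCCCGC, TTTCGCGC, TTTGCCGC or TTTGGCGC. The letters of no element contain those of another, and a match is a match of letters only. Of the 66 genes called lower in PLATE-Seq, 53 had a promoter entry, and CHR letters stood in 29 of these (54.7%), against 10.9% of the 5122 promoters of tested genes and 16.6% of all 27305 promoters. CCAAT letters stood in 66.0% against 38.3%, a share that the rising genes also had (below), and both together in 47.2% against 5.31%. Of the genes of the 7 mitotic lists, called or not, 94 had an entry. CHR letters stood in 61 of these (64.9%) and both elements in 44.7%. The CHR share of the called lower genes was thus not above that of the listed mitotic genes, which make up part of them. In PLK1 and PSRC1, shown above, the CHR letters begin 29 bases before the start and the CCAAT letters 73 and 74 bases before it. Among the 26 lower genes with an entry that are in no mitotic list, 9 held CHR letters, and all 9 also held CCAAT letters. KIF20A and CCNB1 fell without TTTGAA or TTCGAA in this window. Other spellings of the CHR were not searched, so an absence of the element from these genes was not shown.

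The G1/S genes held other elements in the same window, apart from CCAAT letters, which stood in 19 of the 28 with an entry (67.9%) and in 4 of the 6 higher genes of PLATE-Seq (66.7%). E2F letters stood in 17 of the 28 G1/S genes with an entry (60.7%), against 6.25% of tested genes and 3.33% of all promoters, and in 2 of the 53 lower genes. CHR letters stood in 3 of the 28 (10.7%), and DBF4, the member that was lower in TruSeq, is 1 of these 3. CDC6 and PCNA each hold E2F letters. The 6 higher genes of PLATE-Seq with an entry held no CHR letters.

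Idarubicin, an anthracycline, is the other topoisomerase II poison of the plate and was given at a different dose, so that a difference between the drugs cannot be told apart from one of dose. In a direct comparison of the 12 wells of each, 5 of 6590 genes were called (0.0759%), 4 higher (0.0607%) and 1 lower (0.0152%) with mitoxantrone, beside 405 at an unadjusted p under 0.05. PLK1 lay between 41.4 and 117 CPM with idarubicin (median 75), so that it was 1.86-fold higher with mitoxantrone (log2 difference 0.90, SE 0.14, adjusted p = 0.000271). UBE2C (median 286 CPM with idarubicin, difference 0.47) and BUB1B (93.5 CPM, 0.59) were also higher with mitoxantrone, as was ID3, an inhibitor of helix-loop-helix transcription factors (28.8 CPM, 1.07). RELB was lower with mitoxantrone, at a median of 23 CPM against 48.5 CPM (difference -1.05, SE 0.21, adjusted p = 0.0145). For KIF20A the difference was 0.34 with a 95% interval from -0.29 to 0.96, for CDC6 0.05 (-0.28 to 0.38) and for PCNA -0.11 (-0.28 to 0.07), none of them called. PSRC1 differed by 0.75 with an interval from 0.25 to 1.24, and was not called after adjustment (adjusted p = 0.502).

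In TruSeq, where both drugs were on lane 1, 659 of 14970 genes differed between mitoxantrone and idarubicin (4.4%), 398 higher (2.66%) and 261 lower (1.74%) with mitoxantrone. This count fell to between 195 (without mitoxantrone replicate 2) and 322 (without idarubicin replicate 1) when any 1 of the 4 pools was left out, with 241 without mitoxantrone replicate 1 and 272 without idarubicin replicate 2, and the list counts that follow were not recomputed without a pool. Of the 111 mitotic genes, 42 were higher and 0 lower with mitoxantrone than with idarubicin, and of the 33 G1/S genes 0 were higher and 8 lower. PLK1 had 66.3 and 62 CPM with mitoxantrone and 30 and 30.2 CPM with idarubicin (difference 1.07), KIF20A 58.5 and 52 against 30 and 28.6 CPM (0.89), and RELB 32 and 32.9 against 52.1 and 55.7 CPM (-0.76). ID3 did not differ by call in TruSeq (0.04, adjusted p = 0.834). In the wells, the mitotic sum was 4727 to 5754 CPM with idarubicin (median 5273), lower than the mitoxantrone median but overlapping its range.

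Gemcitabine, a nucleoside analogue that stalls replication forks without binding topoisomerase II, gave another direct contrast. The paper counts it among the drugs with minimal effects on BT20 cells. Of 6399 genes, 79 differed (1.23%), 18 higher (0.281%) and 61 lower (0.953%) with mitoxantrone. PLK1 lay between 325 and 521 CPM with gemcitabine (log2 difference -1.53, adjusted p = 6.85e-20), AURKA between 192 and 313 CPM (-1.43), UBE2C between 596 and 896 CPM (-0.80) and PSRC1 between 69.7 and 136 CPM (-1.51), each above every mitoxantrone well. PCNA (0.65, adjusted p = 3.64e-06), NFKBIA (0.68), MCM2 (0.81) and KIAA0101, a PCNA-binding factor (0.40), were higher with mitoxantrone. Of the mitotic genes, 30 of 95 tested were lower and 0 higher with mitoxantrone than with gemcitabine, and of the G1/S genes 5 of 27 were higher and 0 lower. The mitotic sum was 7880 to 9022 CPM with gemcitabine (median 8275), above every mitoxantrone well and overlapping the DMSO wells (median 8851). The G1/S sum had medians of 1255 CPM with gemcitabine and 1295 CPM with DMSO. In both sums the gemcitabine wells overlapped the DMSO wells, but gemcitabine was not tested against DMSO here. How many genes the gemcitabine contrast shares with the DMSO contrast was not counted. The part of topoisomerase II in it was not tested. In each of these comparisons the wells of a condition share their place in every run of 8 well numbers, and since the sources used here do not give the plate position behind a number, position and drug cannot be told apart.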

How the data were processed

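PLATE-Seq and TruSeq tables were used as the authors deposited them, as raw counts per UCSC known gene symbol (28430 symbols). For PLATE-Seq, the authors assigned reads to wells by barcode, aligned them to hg19 with BWA and counted uniquely mapped sense reads, without molecular identifiers. How the TruSeq reads were counted is not given in the sources used here. The 92 spike-in rows were left out. Groups came from the labels.

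Genes passing filterByExpr were tested with edgeR 4.0.16 in R 4.3.3 (quasi-likelihood F-test, robust fit, TMM factors, Benjamini-Hochberg adjustment), on the 24 wells of each PLATE-Seq contrast and on all 16 TruSeq pools. DESeq2 1.42.0 was an alternative. Standard errors are the log2 fold change divided by the square root of F. CPM values are not TMM-scaled. Interval bounds used 22 degrees of freedom. Tables and plots used Python 3.11.15, numpy 2.4.6, pandas 2.3.3 and matplotlib 3.10.9. Positions are GENCODE genes lifted to GRCh37, and promoters are from RefSeq (GRCh38.p14).

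The members and the 24 gene lists were chosen with earlier results of these data known. Named genes were drawn from 10 fixed genes, all called higher and the 20 top called lower in PLATE-Seq, and the largest changes in TruSeq. They also came from up to 4 called and 3 uncalled members of each list and from calls not shared by TruSeq. The top calls against idarubicin and gemcitabine were a further source, and not every gene drawn this way is printed. Simulated counts with 200 changed genes in the mitoxantrone and DMSO wells gave back 87% of 2-fold and 100% of 4-fold changes (5976 genes). In the pools they gave back 100% of both (14805 genes). The changed genes were drawn only from those with a mean above 20 CPM, so these shares do not cover genes below that level.

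Wells were numbered so that each run of 8 held 1 well of each condition. Deviations of mitoxantrone and DMSO wells of the same run had a mean correlation of -0.00093 across 6276 genes, and 0 of 12 pairs exceeded 0.1, so the run was used as a block only as an alternative. No 2 wells had identical counts. U87 and LNCaP tables were not used here.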

Additional observations from a re-analysis of the deposited data

How the results depend on the processing

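The PLATE-Seq count against DMSO (76) lay between 68 and 103 under DESeq2, RLE scaling, a 20 CPM filter, all 96 wells in 1 fit, the replicate block, omission of the low-depth DMSO well or of the 6 dominant symbols, and rose to 193 with no filter on low counts, which kept 71 of the 76 genes. With the replicate block by run of 8 wells it was 68, of which 66 were shared. Against gemcitabine (79) the unfiltered count was 227, and the block gave 77. Against idarubicin (5), DESeq2 gave 9 and the block 4. In TruSeq, the count against DMSO (4607) fell to 705 with lane as a term, where ID3 turned from a log2 fold change of 0.23 to -0.026, and ran from 2619 (without DMSO replicate 1) to 4101 when a pool was left out, 2786 without mitoxantrone replicate 1. Against idarubicin (659) it was 437 with DESeq2, 1452 with only the 4 pools compared, and 195 to 322 when a pool was left out. The causes were not tested beyond what each setting removes. Where a pool is left out, the lone pool is assumed to vary like the other conditions. At the depth of PLATE-Seq, 6276 genes could be tested against 14970 in TruSeq, and the median standard error was 0.243 against 0.0823.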

Other observations

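The span of a gene moved with its change among protein-coding genes, the only type placed in span classes in either assay. Over 6066 such PLATE-Seq genes with an annotated span, the median log2 fold change against DMSO was 0.03 under 10 kb (1144 genes). It was 0.02 from 10 to 30 kb, 0.00 from 30 to 100 kb, -0.06 from 100 to 300 kb and -0.18 over 300 kb (117 genes). In TruSeq, it was 0.12 under 10 kb (2448 genes) and -0.22 over 300 kb (455 genes), and 0.04 and -0.19 with lane as a term. Of the 455 longest genes in TruSeq, 186 were called lower and 3 higher, and 49 and 1 with lane as a term. Over all genes tested, protein-coding or not, 15.1% were lower and 15.6% higher, and 2.77% and 1.94% with lane. Against gemcitabine in PLATE-Seq, the median over 300 kb was -0.16 (124 genes), and against idarubicin in TruSeq it was 0.04. These are descriptions across genes, which are not replicates, and what else differs between long and short genes was not tested.

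Of 4 efflux transporter genes, ABCB1 had no count in any mitoxantrone or DMSO pool. In TruSeq, 3 were tested, of which 2 were called lower and 0 higher (list median -0.37), and 0 with lane as a term (-0.27). Of all genes, 15.1% were lower there, and 2.77% with lane. ABCC1 had 58.7 and 59.4 CPM with mitoxantrone and 62.5 and 59.6 CPM with DMSO (log2 fold change -0.09, not called), and ABCC2 had 61.9 and 63.5 CPM against 85.7 and 71.1 CPM (-0.37). ABCG2, a transporter known to export mitoxantrone and the only one tested in PLATE-Seq, had medians of 16.2 CPM with mitoxantrone and 14.1 CPM with DMSO in the wells (log2 fold change 0.16, adjusted p = 0.962, edgeR) and 40.2 and 42 CPM against 54.9 and 52.4 CPM in the pools (-0.43, adjusted p = 7.34e-06, and -0.36 with adjusted p = 0.0619 when lane was a term). Replication-dependent histone genes, many of whose transcripts lack poly(A) tails, were mostly below the filter, with 2 of 68 tested in PLATE-Seq and 28 in TruSeq, where 1 was called higher, and 0 with lane as a term.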
